A study of Mus musculus with 36 samples.

Results

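Bivalent promoters carry H3K4me3, a histone mark of active and poised promoters, together with H3K27me3, the mark that Polycomb repressive complexes place on repressed developmental genes. Here they were the H2A.Z peaks of the authors' consensus set whose distance to a coding transcript's start site was at most 1000 bp and that overlapped regions of both marks, with or without H3K27ac. The rule selected 3878 of 20213 consensus peaks (19.2%), which is 31.8% of the 12204 promoter peaks, and these lay at the promoters of 3750 genes. Tissue was the hippocampus of C57BL/6J mice, with 3 RNA libraries and 3 H2A.Z libraries in each of 4 groups: old conditioned, old naive, young conditioned and young naive. Old mice were 15.5 months and young mice 2.5 months of age. Conditioned mice had a 5 min fear conditioning session with 3 foot shocks of 0.5 mA lasting 2 s, and their brains were frozen 30 min later, while the remaining mice are labelled naive. No transgene, deletion or drug is given for any group, and the labels do not say which libraries came from separate animals, so p-values measure the spread between libraries, which may be technical.

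H2A.Z is a variant of histone H2A that sits in the nucleosomes flanking start sites, at active and at Polycomb-bound promoters. In embryonic stem cells, bivalent promoters hold many genes of transcription factors and signalling proteins that are silent or weakly transcribed and are used later in a lineage. Some genes with such promoters are early activity genes of neurons, whose RNA appears within minutes of synaptic stimulation through factors such as CREB, SRF and MEF2. The mark regions came with the authors' table, without a statement of the tissue or study they were taken from. In a tissue of many cell types, overlap of both marks does not show that they sit in the same cells or on the same nucleosome, and for RNA and H2A.Z alike, fewer cells of a type and less signal per cell cannot be told apart.

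Promoter sequences are shown for 3 members whose RNA rose after training and for 2 of those with the deepest H2A.Z falls in young mice. Arc and Sik1, whose RNA also rose, had no matched RefSeq window and could not be examined. Windows are from RefSeq on GRCm38.p6 (mm10), 250 bases before to 50 after the start site. Capitals mark TGACG on either strand (CGTCA on the reverse), which is part of TGACGTCA, the full cAMP response element that CREB binds. No printed window held the full element, which was in 2.2% of windows matched to members and 1.79% of all RefSeq windows. Of the 32851 promoter windows in the RefSeq table, 20.8% held it, as did 24% of the 2770 windows matched to members and 38.2% of the 5020 matched to active promoters. Each line reads 5′ to 3′ along the gene.

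Fos, chr12:85473640-85473939, plus strand: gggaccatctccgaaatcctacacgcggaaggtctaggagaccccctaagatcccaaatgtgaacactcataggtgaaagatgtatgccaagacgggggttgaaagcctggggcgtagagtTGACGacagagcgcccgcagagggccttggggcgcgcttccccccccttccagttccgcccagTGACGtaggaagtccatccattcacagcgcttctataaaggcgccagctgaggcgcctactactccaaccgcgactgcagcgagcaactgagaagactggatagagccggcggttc

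Egr4, chr6:85513540-85513839, minus strand: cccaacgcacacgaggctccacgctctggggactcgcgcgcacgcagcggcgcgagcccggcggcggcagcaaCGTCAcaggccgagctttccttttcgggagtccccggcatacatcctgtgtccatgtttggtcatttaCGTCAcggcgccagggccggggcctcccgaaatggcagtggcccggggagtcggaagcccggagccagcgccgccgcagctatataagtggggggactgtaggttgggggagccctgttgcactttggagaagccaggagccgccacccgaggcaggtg

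Cyr61 (RefSeq symbol Ccn1), chr3:145649936-145650235, minus strand: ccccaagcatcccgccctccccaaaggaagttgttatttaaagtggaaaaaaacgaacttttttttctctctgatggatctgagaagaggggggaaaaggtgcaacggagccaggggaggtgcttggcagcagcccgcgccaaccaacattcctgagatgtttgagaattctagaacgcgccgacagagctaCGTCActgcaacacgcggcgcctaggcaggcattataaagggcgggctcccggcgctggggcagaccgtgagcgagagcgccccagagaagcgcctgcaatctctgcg

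Pla2g4e, chr2:120245286-120245585, minus strand: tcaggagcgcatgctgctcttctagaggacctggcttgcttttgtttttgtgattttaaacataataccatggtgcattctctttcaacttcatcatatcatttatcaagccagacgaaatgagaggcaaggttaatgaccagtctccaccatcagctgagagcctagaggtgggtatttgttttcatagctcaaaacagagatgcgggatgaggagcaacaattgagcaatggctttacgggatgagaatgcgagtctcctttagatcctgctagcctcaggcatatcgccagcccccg

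Sprn, chr7:140154610-140154909, minus strand: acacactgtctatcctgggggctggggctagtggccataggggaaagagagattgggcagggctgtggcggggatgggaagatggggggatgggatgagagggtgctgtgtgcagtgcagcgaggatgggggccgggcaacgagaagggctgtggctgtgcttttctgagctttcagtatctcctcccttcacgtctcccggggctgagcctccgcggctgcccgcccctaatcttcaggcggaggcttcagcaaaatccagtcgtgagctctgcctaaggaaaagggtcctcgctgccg

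In Fos the matches began at positions -129 and -66 from the start site, in Egr4 at -177 and -109, and in Cyr61 at -58. The Pla2g4e and Sprn windows held 0 matches, which says only that these letters are not in these windows. Of the other 3 genes with the deepest falls in young mice, Cav1 and Tmem63c also had 0 matches, and Nr4a1 had 4, at -233, -213, -69 and -40. The windows of Fos, Egr4 and Pla2g4e lay wholly inside their H2A.Z peaks, and those of Cyr61 and Sprn overlapped theirs by 203 and 263 bases. GC content was 58.7% in Fos, 67.7% in Egr4, 57% in Cyr61, 46% in Pla2g4e and 62% in Sprn. Windows could be matched to 72.5% of the member peaks and 80.4% of active promoters. The first share is too low for a comparison of composition or motif shares with other promoters, and that comparison is void. The TGACG and TGACGTCA shares above describe the matched windows only.

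Most members sat on the start site itself. The median distance from peak to start site was 200 bp, the median peak width 1081 bp (236 to 5237 bp), and the authors' annotation placed 2613 peaks (67.4%) as exonic and 1095 (28.2%) in a 5′ UTR. H3K27me3 regions had a median width of 2414 bp, 3068 peaks lay wholly inside theirs, 399 and 314 crossed its end or start, and 97 contained it. The widest regions covered developmental transcription factor genes: 88971 bp at Hoxb6, 56328 bp at Hoxa5, 37777 bp at Hand2 and 25265 bp at Pax6. H3K27ac, a mark of active promoters, overlapped 1668 members (43%), and H3K4me1 overlapped 3795 (97.9%). The 4 members nearest to the distance limit were Slc16a11 at 991 bp, 2310014L17Rik at 993 bp, Msi1 at 994 bp and Hapln4 at 998 bp. The 4 peaks with both marks just beyond it were Grin2b at 1001 bp, Slc7a10 at 1004 bp, Trank1 at 1009 bp and Gabrb1 at 1011 bp.

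RNA of the members was measurable for most genes. All 3750 genes were in the count tables, 3278 (87.4%) passed the filter on low counts, 472 did not, and 43 (1.15%) had 0 counts in all 12 libraries. Of the genes at active promoters, those with H3K4me3 and H3K27ac but no H3K27me3, 98.5% passed. Among members the share was 96.9% with H3K27ac and 80.4% without. Among the members with the highest normalised counts (CPM, counts scaled to library size and not to transcript length) were the astrocytic glutamate transporter gene Slc1a2 and the neuronal genes Kif5a, Atp1b1 and Syt1, whose motor, sodium pump and vesicle proteins mature neurons use. Slc1a2 averaged 5659.8 CPM over the 12 libraries and Syt1 averaged 1735 CPM. A gene that passed only through a group where it was high had to differ, so counts below over genes that passed are not counts over all members.

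RNA libraries held 9410843 to 13350561 counts. All 12 hippocampal neuron markers were measured, with a summed level of 6367 to 7781 CPM. The 16 choroid plexus markers, none at 0 throughout, summed to 243 to 411 CPM in old conditioned, 423 to 3029 CPM in old naive, 247 to 3633 CPM in young conditioned and 495 to 4839 CPM in young naive libraries. The sums were lower in old conditioned than in old naive libraries and varied most among young ones. Of these markers Clic6, Kl, Prlr and Steap1 were members, with median log2 RNA changes of -1.34 for training and -1.59 for age and no calls. Fits with the marker score as a covariate are given where they change a call, and the markers' part in other results was not tested. For H2A.Z the table holds group values and no value per library, so no replicate spread can be shown.

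H2A.Z levels at members were lower in conditioned than in naive groups at both ages. In the authors' deposited table the median log2 level of the 3878 members was 6.24 in old conditioned, 7.45 in old naive, 6.06 in young conditioned and 6.63 in young naive mice. At active promoters it was 6.58 in old conditioned, 7.82 in old naive, 6.38 in young conditioned and 7.01 in young naive mice. Over all consensus peaks it was 5.65, 6.90, 5.46 and 6.25 in the same order, so the lower levels were not particular to members. Foxo3, coding for a forkhead transcription factor of stress responses, had the highest young naive level (9.14), followed by Cpeb2 (8.93), a translation regulator, and Med12l (8.74). Loxl2, a collagen-modifying enzyme gene, was lowest at -0.67, the lowest level in the table for that group. How the authors scaled these levels is unknown here, and for training in old mice the fold exceeds the difference of the levels by a constant 0.22. A peak was called in all 3 libraries for 63.5% of members in old conditioned, 79.1% in old naive, 66.2% in young conditioned and 51.9% in young naive mice. At active promoters these shares were 73.7%, 75%, 77.7% and 75.9% in the same order, so members were above them in old naive mice only.

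In old mice, training was accompanied by lower H2A.Z at 653 members (16.8%) and higher H2A.Z at 0 members at the authors' FDR under 0.05 in the authors' deposited table. Of all consensus peaks 10.7% were called in either direction, 10.6% lower and 0.0396% higher. The share was 15.9% among all promoter peaks and 18.3% among active promoters. At an unadjusted p under 0.05 in that table, 1589 members were lower and 0 higher (41%), against 30.1% of all consensus peaks, 42.5% of promoter peaks and 48.5% of active promoters. The members' median log2 fold was -0.98, against -0.93 for all consensus peaks and -1.05 for active promoters. A fold below 0 was found at 3824 members (98.6%), against 87.3% of all consensus peaks, 98.3% of promoter peaks and 99.6% of active promoters. Members with H3K27ac were called more often (447 of 1668, 26.8%, median -0.97) than members without it (206 of 2210, 9.32%, median -0.99), with medians nearly alike. Level differed between these groups too. Within quartiles of young naive level, from lowest to highest, 0.727%, 3.75%, 20.3% and 51.1% of members with H3K27ac were called in old mice, against 0.531%, 3.49%, 19.3% and 44.4% of members without it.

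The deepest falls in old mice were at Peli3, Stard13, H2-Ab1, Dnajc12 and Prokr2, at peaks of 475 to 1114 bp. At Peli3, a ubiquitin ligase gene of innate immune signalling, the peak upstream of the start site (chr19:4943223-4943757) had a level of -0.11 in old conditioned and 5.12 in old naive mice, a log2 fold of -5.01 (FDR = 0.00747, authors' deposited table). The old conditioned level is the lowest in the table for that group, so the fold depends on how the fit treats near-empty peaks. The other Peli3 peak, 518 bp inside the gene, had a fold of -0.48 (FDR = 0.590, authors' deposited table). Stard13, coding for a lipid-transfer domain protein (chr5:151189934-151190478), had levels of 0.86 and 5.10 in old conditioned and old naive mice, and H2-Ab1, an MHC class II beta chain gene (chr17:34263139-34263613), had 1.26 and 5.39. Their folds in the authors' deposited table were -4.03 (FDR = 0.0309) and -3.91 (FDR = 0.0432). Dnajc12, a cochaperone gene, followed at -3.68 (FDR = 0.0223) and Prokr2, a prokineticin receptor gene, at -2.83 (FDR = 0.032) in the authors' deposited table. Among the smallest called falls in that table were those at Fut8 (-0.81), Chst2 and Hmga1 (-0.84 each) and Zmynd11 (-0.85), at peaks of 1922 to 3111 bp.

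In young mice, 322 members (8.3%) had lower and 0 had higher H2A.Z in conditioned mice at the authors' FDR under 0.05 in the authors' deposited table. Of all consensus peaks 13.3% were called, 13.2% lower and 0.109% higher, so the members' share was below the background. At an unadjusted p under 0.05, 822 members were lower and 3 higher (21.3%), against 26.9% of all consensus peaks and 33.4% of active promoters. Their median log2 fold was -0.53, against -0.57 for all consensus peaks, -0.65 for active promoters (16.5% called) and -0.91 for promoters with H3K4me3 alone (25.9% called). In all, 3445 members (88.8%) had a fold below 0, against 81.1% of all consensus peaks, 91.8% of promoter peaks and 94.8% of active promoters. With H3K27ac, 108 members (6.47%, median -0.47) were called, and without it 214 (9.68%, median -0.58). Within quartiles of old naive level the young shares were 15.2%, 9.33%, 7.14% and 2.28% with H3K27ac and 12.8%, 9.87%, 6.01% and 3.77% without it, so neither group had the higher share throughout.

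The deepest falls in young mice took peaks to near the lowest level in the table. Pla2g4e, a cytosolic phospholipase A2 gene (chr2:120244782-120245626), had a level of -0.38 in young conditioned and 5.60 in young naive mice, a log2 fold of -5.98 in the authors' deposited table (FDR = 4.53e-08). Cav1, the caveolin-1 gene (chr6:17305925-17306601), and Sprn, coding for the prion-like protein Shadoo (chr7:140154257-140154872), were also at -0.38 in young conditioned mice, against 5.17 and 5.16 in young naive mice, with folds of -5.55 each (FDR = 0.00451 and 2.06e-05, authors' deposited table). At Tmem63c, a gene of a mechanosensitive channel family (chr12:87026205-87027112), levels were 0.52 and 5.95 in the same order, and the fold was -5.44 (FDR = 4.69e-09, authors' deposited table). Nr4a1, an early activity gene of a nuclear receptor, fell by 5.37 (FDR = 1.17e-05) at the upstream peak of a pair in the authors' deposited table. Young conditioned mice had 7 members at -0.38, the lowest level in the table for that group. Each of the 5 peaks was called in 0 of 3 young conditioned libraries and in 2 or 3 of 3 young naive libraries. In old mice their folds in the authors' deposited table were -2.40 at Pla2g4e, -1.72 at Cav1, -1.03 at Sprn, -1.14 at Tmem63c and -1.62 at Nr4a1, none past FDR 0.05. The smallest called falls in young mice in that table were at Gpr3 (-1.14), Rictor (-1.13), Tmem123 and Phospho1 (-1.12 each) and Cdkn1a (-1.11).

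RNA of these genes was not called different. Pla2g4e had 3.69, 4.66 and 5.37 CPM in young conditioned and 3.6, 5.12 and 6.7 CPM in young naive libraries, ranges that overlap. Sprn had 198, 195 and 193 CPM in young conditioned and 181, 172 and 205 CPM in young naive libraries, and Tmem63c had 49.2, 43.3 and 44.6 CPM against 52.7, 42.8 and 50.1 CPM. The edgeR log2 changes in young mice were -0.19 for Pla2g4e, -0.01 for Cav1, 0.07 for Sprn and -0.08 for Tmem63c, and H2-Ab1 had too few counts to be tested. Nr4a1 RNA was less flat, with a log2 change of 0.97 over both ages that did not pass (edgeR adjusted p = 0.0712). Over the 3278 tested member genes, Pearson's r between the H2A.Z fold of the peak with the highest young naive level and its RNA change came to -0.00805 for training in old mice, -0.0108 for training in young mice, 0.061 for age among conditioned mice and 0.0732 for age among naive mice. These are descriptions across genes, which share libraries and are not independent.

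**Figure D1:**
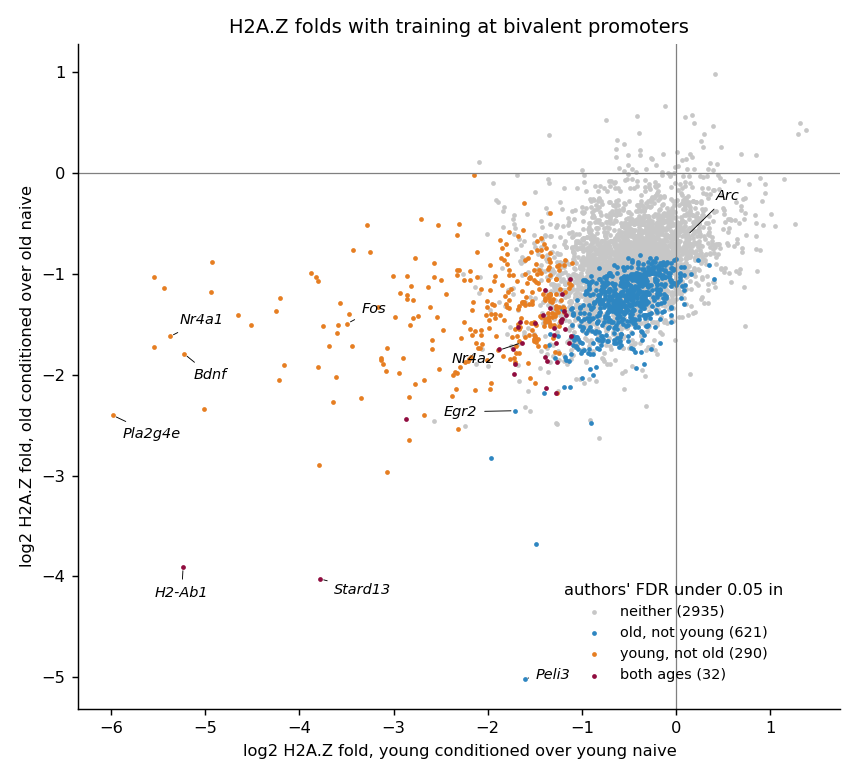
Log2 H2A.Z fold of each of the 3878 bivalent promoter peaks with training in old mice (vertical axis) and in young mice (horizontal axis), from the authors' deposited table. Colours give the age at which a peak passed the authors' FDR of 0.05. Calls in young mice spread far to the left, down to -5.98 at Pla2g4e, while most calls in old mice are closely packed below -0.81, and 32 peaks were called at both ages.

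Calls at the 2 ages fell on largely different members. In the authors' deposited table, 32 members were called at both ages, which is 4.9% of the 653 called in old and 9.94% of the 322 called in young mice. This overlap was not counted for other peaks, so it cannot be read as particular to members. A call at 1 age only is not a difference between ages. The 621 called in old mice alone had a median young naive level of 7.54, a median width of 1448 bp and H3K27ac at 69.2%. The 290 called in young mice alone had 6.33, 946.5 bp and 31.4%. Direction was mostly shared, since 3417 members (88.1%) had a fold below 0 at both ages. The fold was further below 0 in old mice at 3109 members (80.2%), against 75.5% of all promoter peaks and 68.2% of all consensus peaks. Across the 3878 members the folds of the 2 ages had Pearson's r = 0.448 and a Spearman coefficient of 0.435, and across the 6289 active promoters 0.602 and 0.549, as a description of peaks that share 1 table and scaling. The difference between ages in the training fold was not tested, since the table gives no such test and no library values.

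The share of members called varied with their level, in opposite directions at the 2 ages. Members were placed in quartiles of all promoter peaks by their level in the naive group of the other age, which does not enter the fold examined. In old mice, the called share by quartile of young naive level, from lowest to highest, was 0.575%, 3.58%, 19.8% and 49.5%. In young mice, by quartile of old naive level, it was 13.2%, 9.7%, 6.56% and 2.64%. Within the lowest quartile of old naive level, 39.3% of active promoters and 39% of H3K4me3-only promoters were called in young mice, with median log2 folds of -1.49 and -1.46, against -0.67 for members. In the highest quartile of old naive level the young shares were 2.64% for members, 3.32% for active and 5.81% for H3K4me3-only promoters. In old mice the 3 classes had shares of 49.5%, 39.4% and 41.2% in the highest quartile of young naive level. Peak width moved with level, and by width quartile of the members the old share was 1.75%, 8.97%, 23.2% and 33.4% and the young share 10.4%, 8.97%, 7.22% and 6.6%. The part of level, and with it of read depth per peak, in these calls was not tested.

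**Figure D2:**
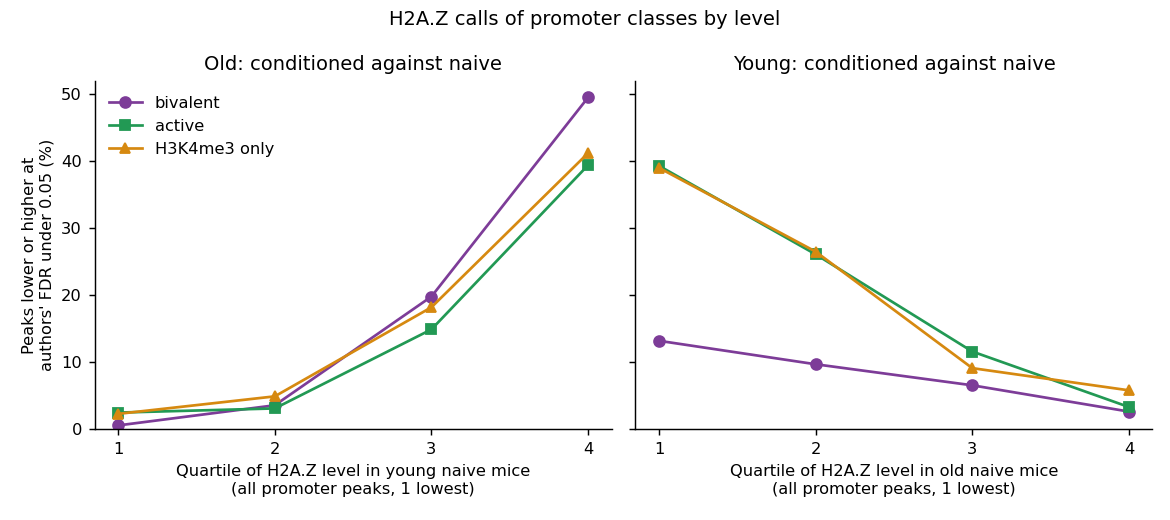
Share of promoter peaks (percent) past the authors' FDR of 0.05 for training in old mice (left) and young mice (right), by quartile of the H2A.Z level in naive mice of the other age. Lines are bivalent, active and H3K4me3-only promoters. In old mice all 3 rise to between 39.4% and 49.5% in the highest quartile. In young mice bivalent promoters start at 13.2% in the lowest quartile and the other classes at 39.3% and 39%.

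Members under wide H3K27me3 regions had shallower folds and fewer calls. By quartile of H3K27me3 width (322 to 1608, 1609 to 2414, 2416 to 3607 and 3620 to 88971 bp) the share called in old mice was 21.1%, 20.7%, 14.9% and 10.6%, with medians of -1.03 in the narrowest and -0.89 in the widest quartile in the authors' deposited table. In young mice the shares were 10.7%, 8.35%, 8.78% and 5.36%, with medians of -0.58 and -0.40 at the same ends in that table. H3K27ac overlapped 59.5%, 46.5%, 35.4% and 30.6% of members along the same quartiles, and the share of genes whose RNA passed the filter was 91.8%, 89.9%, 89.8% and 78.5%. Median young naive level was 6.70 in the narrowest and 6.44 in the widest quartile, so level moved with width as well.

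**Figure D3:**
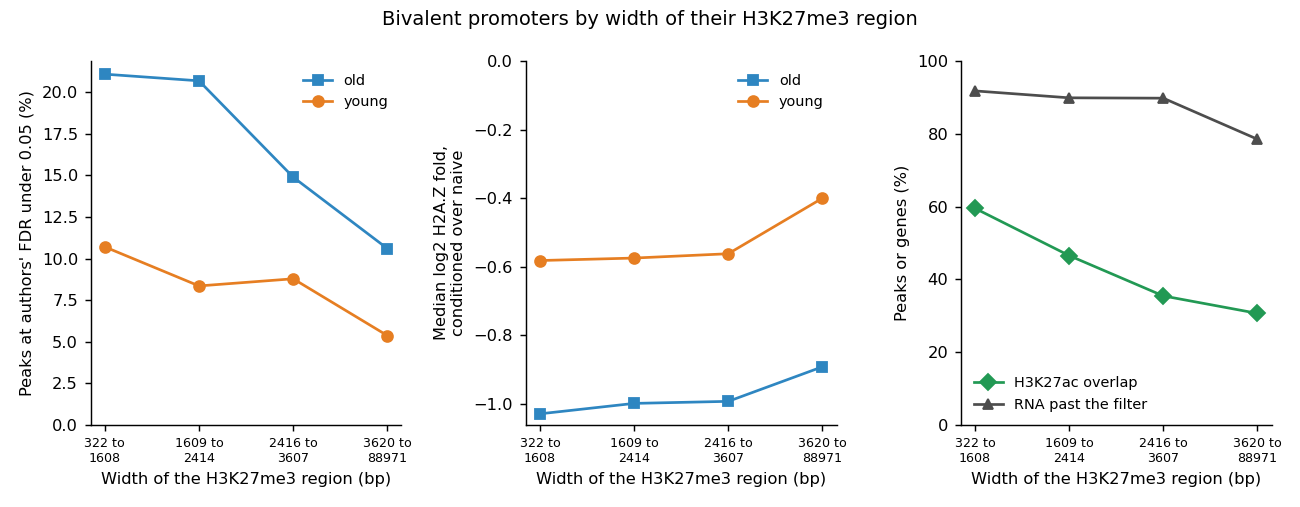
Bivalent promoters by quartile of H3K27me3 region width (bp, horizontal axes). Panels give the share of peaks past the authors' FDR of 0.05 (percent), the median log2 H2A.Z fold with training, and the share with H3K27ac and with RNA past the filter (percent). In the widest quartile 10.6% of peaks were called in old and 5.36% in young mice, against 21.1% and 10.7% in the narrowest.

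Developmental transcription factors, the genes for which bivalent promoters are best known, made up a distinct group among the members. Of 170 listed homeobox, Pax, Sox, Fox, T-box, Gata, Zic, Klf, bHLH and related genes with a promoter peak, 133 (78.2%) were bivalent, against 32.2% of all 11646 genes with a promoter peak. Shares were 59 of 69 (85.5%) for homeobox genes outside the Hox clusters, 26 of 32 (81.2%) for Pax, Sox and Fox, 17 of 23 (73.9%) for neural bHLH and 10 of 20 (50%) for Hox genes. The 142 peaks lay in H3K27me3 regions with a median width of 10992 bp, 48 (33.8%) overlapped H3K27ac, and RNA of 60 genes (45.1%) passed the filter, with 0 of the 10 Hox genes among them. In the authors' deposited table, 6 of the 142 peaks (4.23%, median -0.80) were called lower in old mice, against 16.8% of members and 10.7% of all consensus peaks. In young mice 1 (0.704%, median -0.19) was, against 8.3% and 13.3%. The 142 peaks had a median young naive level of 5.60, in the lowest quartile of promoter peaks. Of members in that quartile, 0.575% were called in old and 9.94% in young mice, though this level enters the young fold. The 1 peak called in young mice belonged to Hey2, a Notch target gene, which fell by 1.99 in old (FDR = 0.00239) and by 1.72 in young mice (FDR = 0.00106) in the authors' deposited table. Others in old mice were Foxd1 (-1.24), Foxq1 (-1.16), Pou3f1 (-1.03) and Bhlhe22 (-0.97), from the authors' deposited table. Of the 11 Hox peaks 0 were called, with medians of -0.76 in old and -0.03 in young mice, where 6 were below 0, in the authors' deposited table. In young mice they ran from -0.38 at Hoxa2 (FDR = 0.835) to 1.32 at Hoxb5 (FDR = 0.267) in the authors' deposited table.

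Signalling ligands, receptors and their antagonists were also largely bivalent. Of 39 Wnt pathway genes with a promoter peak 33 (84.6%) were members, and of 43 BMP, hedgehog, FGF and Notch genes 36 (83.7%). Of 34 Wnt peaks, 4 (11.8%) were called lower in old mice, a share near that of all consensus peaks (10.7%) and below that of members (16.8%). They belonged to the receptor genes Fzd1 (-1.46), Fzd8 (-1.37), Fzd9 (-1.30) and Fzd4 (-1.06), while the receptor genes Fzd6 (-1.24), Fzd2 (-1.16) and Fzd10 (-0.62) did not pass, in the authors' deposited table. In young mice 1 was called, at the secreted Wnt inhibitor gene Wif1 (-1.56, FDR = 0.0242), in the authors' deposited table. Of 37 BMP, hedgehog, FGF and Notch peaks, 5 (13.5%) were lower in old mice: the ligand genes Fgf9 (-1.67), Jag1 (-1.51) and Bmp2 (-1.29), the BMP antagonist gene Nog (-1.57) and the hedgehog receptor gene Ptch1 (-0.99), from the authors' deposited table. The 1 called in young mice was the upstream peak of Fgf15 (-2.74, FDR = 0.00202, authors' deposited table). No RNA of either list passed in any comparison among 24 and 25 tested genes, where edgeR found 0 after adjustment.

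Genes of the Polycomb machinery were themselves partly bivalent. Of genes with a promoter peak, 9 of 18 PRC1 and 5 of 11 PRC2 genes were members, as was 1 of 1 H3K27 demethylase gene, Kdm6a, whose product removes the Polycomb mark. Members included 0 of 15 genes of the H3K4 methyltransferase complexes and 0 of 13 genes of H2A.Z and its chaperones and remodellers. In old mice the PRC1 genes Yaf2 (-1.36), Cbx2 (-1.22), Phc2 (-1.04) and Rybp (-1.02) and the PRC2 genes Aebp2 (-1.02) and Jarid2 (-0.94) were called lower in the authors' deposited table, and in young mice none of the 14 peaks was. The old shares were 44.4% of 9 PRC1 and 40% of 5 PRC2 peaks, against 16.8% of members and 10.7% of all consensus peaks. Median young naive levels of these peaks were 7.36 and 7.77, within the highest quartile of promoter peaks. In that quartile 49.5% of all members were called in old mice. Suz12, a core PRC2 subunit gene, had folds of -1.17 in old (FDR = 0.0882) and -1.05 in young mice (FDR = 0.166) in the authors' deposited table. Suz12 RNA averaged 58.6 ± 4.23 CPM in old conditioned, 62.2 ± 4.55 in old naive, 66.5 ± 4.34 in young conditioned and 62.9 ± 3.28 in young naive libraries (SD, n = 3 each; edgeR adjusted p = 0.996 for training over both ages). RNA of Ezh2 and Eed, the other core PRC2 genes, and of H2afz and H2afv, which code for H2A.Z, passed in no comparison, and these 4 are not members. The edgeR log2 change of H2afz with training was -0.08 in old (adjusted p = 0.806) and 0.18 in young mice (adjusted p = 0.73).

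RNA of 5 members was higher after training, and all 5 were early activity genes. Of 27 such genes with a promoter peak, 21 (77.8%) were members, with 25 peaks. The 5 genes passed an adjusted p of 0.05 averaged over both ages, while the other 16 of the list did not (0.153% of 3278; edgeR quasi-likelihood test with Benjamini-Hochberg adjustment over 14405 genes), against a background of 0.0764%, with 0 lower. At an unadjusted p under 0.05, 116 member genes were higher and 172 lower (8.79%), against 6.99% of all genes. The change was above 0 in 20 of the 21 genes, and its median on the log2 scale was 0.55 against -0.00 for all members. DESeq2 called 8 members higher and 1 lower. The list was drawn up from what is known of such genes, with earlier results of these data in view.

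Fos, which codes for an AP-1 transcription factor, had 18.4, 20.9 and 15.7 CPM in old conditioned libraries, against 5.76, 4.22 and 2.87 CPM in old naive libraries. In young mice it had 20.7, 14.7 and 24.6 CPM in conditioned libraries, against 10.2, 2.44 and 2.81 CPM in naive libraries. The lowest conditioned library stood above the highest naive one at both ages. The log2 change over both ages was 2.06 (SE 0.26, edgeR adjusted p = 0.00199), and it passed in all 12 fits that left out 1 library.

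Egr4, a zinc finger transcription factor gene, had 34.1, 28.9 and 25.3 CPM in old conditioned against 17.6, 15.8 and 16.1 CPM in old naive libraries. In young mice it had 30.8, 22.4 and 27 CPM in conditioned against 18.3, 12 and 13.6 CPM in naive libraries. The groups did not overlap at either age, and the log2 change was 0.86 (SE 0.11, edgeR adjusted p = 0.00199).

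Sik1, a kinase gene whose product restrains CREB coactivators, had 24.9, 18.1 and 20 CPM in old conditioned against 12.7, 13.1 and 10.7 CPM in old naive libraries. In young mice it had 25.1, 20.1 and 24.2 CPM in conditioned against 12.6, 13.7 and 12.8 CPM in naive libraries. Again no libraries overlapped, with a log2 change of 0.80 (SE 0.09, edgeR adjusted p = 0.00105). Sik1 was the 1 member called in young mice alone (log2 0.82, SE 0.13, edgeR adjusted p = 0.0414), which is 0.0305% of the tested members against a background of 0.0278% higher and 0 lower. That call was kept in 4 of 12 fits that left out 1 library (edgeR adjusted p up to 0.462). The edgeR adjusted p was 0.138 in the fit of the 2 young groups and 0.0532 with upper-quartile factors.

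Cyr61, coding for a secreted matrix protein, had 6.1, 5.68 and 5.69 CPM in old conditioned against 2.52, 2.66 and 2.15 CPM in old naive libraries. In young mice it had 4.37, 4.25 and 7.09 CPM in conditioned against 3.6, 2.29 and 2.65 CPM in naive libraries. The groups did not overlap, and the log2 change was 1.06 (SE 0.16, edgeR adjusted p = 0.0134, up to 0.0738 with 1 library left out and 0.0632 with the choroid score as a covariate).

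Arc, whose product acts at synapses on glutamate receptor trafficking, had 178, 176 and 134 CPM in old conditioned against 93.1, 62.3 and 60 CPM in old naive libraries. In young mice it had 165, 137 and 160 CPM in conditioned against 136, 59.9 and 55 CPM in naive libraries. Over both ages the highest naive library lay above the lowest conditioned one. The log2 change of 1.04 (SE 0.18, edgeR adjusted p = 0.0407) passed in 2 of 12 fits that left out 1 library, with an adjusted p of up to 0.189, and reached 0.0537 with the choroid score as a covariate.

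The other early genes did not pass. Egr2, a zinc finger factor gene, had 6.54, 6.82 and 5.34 CPM in old conditioned against 2.6, 1.65 and 0.359 CPM in old naive libraries. In young mice it had 8.29, 3.83 and 6.58 CPM in conditioned against 3.07, 0.229 and 0.579 CPM in naive libraries. Its groups did not overlap, with a log2 change of 2.20 (SE 0.40, edgeR adjusted p = 0.0536). Nr4a1, Egr1 and Npas4 had log2 changes of 0.97, 0.81 and 0.91 (edgeR adjusted p = 0.0712, 0.0727 and 0.203), and Bdnf, the growth factor gene, had -0.03 (edgeR adjusted p = 0.969). Among members 16 genes (0.488%) had all 6 conditioned libraries on 1 side of all 6 naive ones, against 0.292% of all genes.

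**Figure D4:**
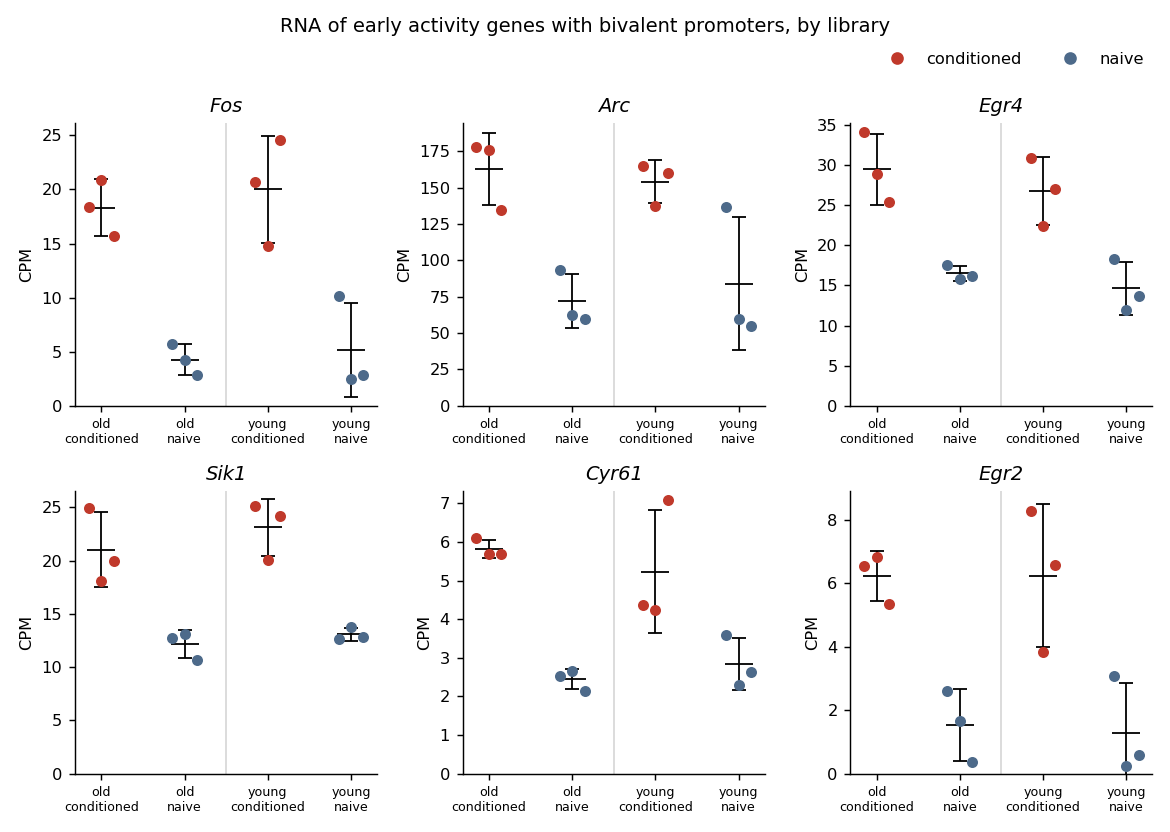
CPM of 6 early activity genes with bivalent promoters in each of the 12 RNA libraries (points), with the mean and SD of the 3 libraries of a group (bars). Conditioned libraries stand left of naive ones at each age. Fos reaches 15.7 to 20.9 CPM in old conditioned against 2.87 to 5.76 CPM in old naive libraries, and Arc shows the young naive library at 136 CPM that lies among the conditioned values.

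H2A.Z at the same promoters differed from gene to gene. The peak over the Fos start site (chr12:85473573-85475096) fell by 3.49 in young mice (FDR = 1.95e-07), with levels of 3.41 in young conditioned and 6.90 in young naive mice, while its fold in old mice was -1.49 (FDR = 0.38) in the authors' deposited table. At Nr4a2, a nuclear receptor gene, the broad peak was lower at both ages, with folds of -1.68 in old (FDR = 0.0342) and -1.64 in young mice (FDR = 0.00232), in the authors' deposited table. Called in old mice alone were Egr2 (-2.36, FDR = 0.0159), Sik1 (-1.28, FDR = 0.02), Dusp5 (-1.03, FDR = 0.0306), a MAP kinase phosphatase gene, and Klf10 (-0.97, FDR = 0.0206), from the authors' deposited table. At Egr4 the folds were -0.49 in old and 0.18 in young mice, at Arc -0.62 and 0.12, and at Cyr61 -0.22 and -0.17, all with an FDR above 0.2 in the authors' deposited table. In total 5 of the 25 peaks were called in old mice, against 16.8% of members and 10.7% of all consensus peaks, and 4 in young mice, against 8.3% and 13.3%, with medians of -0.92 and -0.74 in the authors' deposited table.

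Peaks of 1 gene could differ. Member genes with more than 1 bivalent peak numbered 126, with 254 peaks, and the median span between the folds of 1 gene was 0.45 in old and 0.48 in young mice in the authors' deposited table. In 15 of these genes some but not all peaks were called in old mice, and in 23 in young mice, against 1 gene at each age with all peaks called. The lower and upper quartiles of all members' folds were -1.24 and -0.73 in old and -0.88 and -0.25 in young mice. Neither spans nor such counts were taken for other promoter peaks or for unrelated peaks. They do not show that peaks of 1 gene differ more than other peaks do. The 2 Nr4a1 peaks lie less than 100 bp apart, at chr15:101266043-101266637 and chr15:101266712-101267272. Their young folds were -5.37 (FDR = 1.17e-05) and -0.16 (FDR = 0.893), with young conditioned levels of -0.38 and 5.19, in the authors' deposited table. Of the 3 Bdnf peaks the upstream one (chr2:109673915-109674397) had -5.22 in young mice (FDR = 1.14e-06), and those at chr2:109677057-109677887 and chr2:109693222-109694278 had -0.77 and -0.66 (FDR = 0.242 and 0.328) in the authors' deposited table.

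RNA of members changed little with training otherwise. In old mice alone edgeR called 0 of 3278 member genes (unadjusted p under 0.05: 174 higher and 142 lower, or 9.64%; DESeq2 called 6), against a background of 0.0139% higher and 7.16% at the unadjusted threshold. The smallest adjusted p there belonged to Sik1 (log2 0.79, 0.105), Fos (2.08, 0.112), Egr4 (0.83, 0.112), Cyr61 (1.25, 0.112) and Cbln4 (0.84, 0.112), a synaptic organizer gene, by edgeR. In young mice alone 7.69% of members had an unadjusted p under 0.05, against 6.63% of all genes. Groups did not overlap in 435 members (13.3%) in old and 444 (13.5%) in young mice, against 12.8% of all genes at each age. The interaction, the training change in old minus that in young mice, had 0 calls among members and a background of 0 by edgeR. At an unadjusted p under 0.05 it had 193 member genes above and 106 below 0 (9.12%), against 7.2% of all genes, and DESeq2 called 1.

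The training counts depended on single libraries. Over both ages 17 member genes, 15 higher and 2 lower, passed without young naive library 79, and 3 without old conditioned 61, old naive 71 or young naive 83. In young mice 9 passed without young naive 79 and 2 without young conditioned 75. None passed there without old conditioned 65, old naive 67 or 69, young conditioned 73 or 77, or young naive 81 or 83. In old mice 5 passed without young naive 79 and 1 without young naive 81.

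With age, 5 member genes were higher and 6 lower in old than in young mice when averaged over conditions (0.336%; edgeR), against a background of 0.375%, or 0.146% higher and 0.229% lower. At the unadjusted threshold 315 were higher and 312 lower (19.1%), against 16.6% of all genes. Groups did not overlap in 52 members (1.59%), against 1.4% of all genes. The members' share was near the background, so what follows describes genes and not the class. Summed microglial markers moved with age as well, at 437 to 473 CPM in old conditioned and 463 to 472 CPM in old naive libraries, against 375 to 384 CPM in young conditioned and 354 to 413 CPM in young naive libraries. Endothelial and mural markers summed to 193 to 218 CPM in old conditioned and 193 to 216 CPM in old naive libraries, against 179 to 183 CPM in young conditioned and 179 to 192 CPM in young naive libraries. Hippocampal neuron markers summed to 6905 to 7590 CPM in old conditioned and 7208 to 7781 CPM in old naive libraries. In young conditioned and young naive libraries they summed to 6367 to 7127 CPM and 6414 to 6586 CPM. The part of these marker lists in the results was not tested.

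Zc3hav1, coding for the zinc finger antiviral protein, was higher in old mice. It had 10.6, 11.4 and 9.74 CPM in old conditioned against 4.68, 6.5 and 6.48 CPM in young conditioned libraries, and 10.2, 10.2 and 9.15 CPM in old naive against 3.71, 6.03 and 4.63 CPM in young naive libraries. Every old library lay above every young one (log2 0.94, SE 0.12, edgeR adjusted p = 0.00266), and the call held in all 12 fits that left out 1 library.

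Unc13b, coding for the vesicle priming protein Munc13-2, was lower in old mice. It had 44.8, 50.3 and 51.6 CPM in old conditioned against 56.6, 58.4 and 61.9 CPM in young conditioned libraries, and 46.1, 47.4 and 46.4 CPM in old naive against 68, 61.5 and 65.3 CPM in young naive libraries. No old library overlapped a young one (log2 -0.37, SE 0.05, edgeR adjusted p = 0.00419), and this call also held in all 12 such fits. H2A.Z at its promoter fell by 1.59 with training in old mice (FDR = 0.018) in the authors' deposited table.

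Onecut1, a homeobox factor gene, was the 1 developmental transcription factor called for RNA. It had 1.68, 2.01 and 1.64 CPM in old conditioned against 0.528, 0.583 and 1.21 CPM in young conditioned libraries, and 3.47, 2.38 and 4.57 CPM in old naive against 0.954, 1.22 and 0.744 CPM in young naive libraries. Old libraries lay above young ones (log2 1.53, SE 0.25, edgeR adjusted p = 0.0163), and 8 of 12 such fits kept the call. Cxcl12, a chemokine gene, averaged 51.4 ± 2.55 CPM in old conditioned, 50.2 ± 2.06 in old naive, 37.7 ± 4.16 in young conditioned and 39.3 ± 5.58 CPM in young naive libraries (SD, n = 3 each; log2 0.40, edgeR adjusted p = 0.0277, kept in 5 of 12 fits). Rasgrf1, a Ras exchange factor gene, was higher by 0.20 (edgeR adjusted p = 0.0491, kept in 2 of 12 fits).

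Among genes lower in old mice, Mki67 marks dividing cells and Igfbpl1 marks immature neurons, which in the hippocampus are found in the dentate gyrus. Of the 4 members on the immature neuron list these 2 were called, Eomes and Tbr1 were not, and 1 of the 4 had a change above 0. The list's 9 markers summed to 157 to 171 CPM in old conditioned and 139 to 169 CPM in old naive libraries. In young conditioned and young naive libraries they summed to 177 to 197 CPM and 157 to 214 CPM. Mki67 had 1.59, 1.14 and 1.03 CPM in old conditioned against 1.81, 2.58 and 2.43 CPM in young conditioned libraries, and 1.1, 0.917 and 0.717 CPM in old naive against 1.59, 3.51 and 2.98 CPM in young naive libraries. Its highest old and lowest young library were both at 1.59 CPM (log2 -1.21, SE 0.23, edgeR adjusted p = 0.0382, kept in 3 of 12 fits). Igfbpl1 averaged 0.319 ± 0.199 CPM in old conditioned, 0.626 ± 0.573 in old naive, 1.95 ± 0.818 in young conditioned and 2.11 ± 1.29 CPM in young naive libraries (SD, n = 3 each), with a log2 change of -2.21 (SE 0.45, edgeR adjusted p = 0.0483, kept in 3 of 12 fits). Coch, Cxadr and Ptpro, coding for cochlin, a cell adhesion receptor and a receptor phosphatase, had log2 changes of -1.08, -0.44 and -0.32 (edgeR adjusted p = 0.0413, 0.0368 and 0.0331), kept in 3, 4 and 4 of 12 fits.

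Within naive mice, 2 member genes were called, both lower in old mice (0.061%), against a background of 0.0555%, or 0.0347% higher and 0.0208% lower. They were Unc13b (log2 -0.48, SE 0.07, edgeR adjusted p = 0.0308) and Kcnt1, coding for a potassium channel opened by sodium (log2 -0.61, SE 0.10, edgeR adjusted p = 0.033). With 1 library left out, 5 of 12 fits kept the Unc13b call in naive mice (edgeR adjusted p up to 0.165). For Kcnt1, 3 of 12 did (up to 0.193). In the fit of the 2 naive groups alone the edgeR adjusted p was 0.323 for each gene. Kcnt1 had 23.8, 29.8 and 27.8 CPM in old naive against 42.9, 37.6 and 44 CPM in young naive libraries, which do not overlap. In conditioned mice it had 35.8, 36.3 and 34.3 CPM in old against 29.1, 32.2 and 34.3 CPM in young libraries, and its log2 change was 0.16 (edgeR adjusted p = 0.493). The interaction of Kcnt1 was 0.77 (SE 0.14) and did not pass (edgeR adjusted p = 0.607). Groups did not overlap in 450 members (13.7%), against 13.4% of all genes, and 11.6% of members had an unadjusted p under 0.05, against 10.3%. In conditioned mice alone edgeR called 0 members (unadjusted p under 0.05: 299 higher and 221 lower, or 15.9%; DESeq2 called 40), against a background of 0.0347% higher, 0 lower and 13.4% at the unadjusted threshold. Groups did not overlap there in 763 members (23.3%), against 23.1% of all genes.

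**Figure D5:**
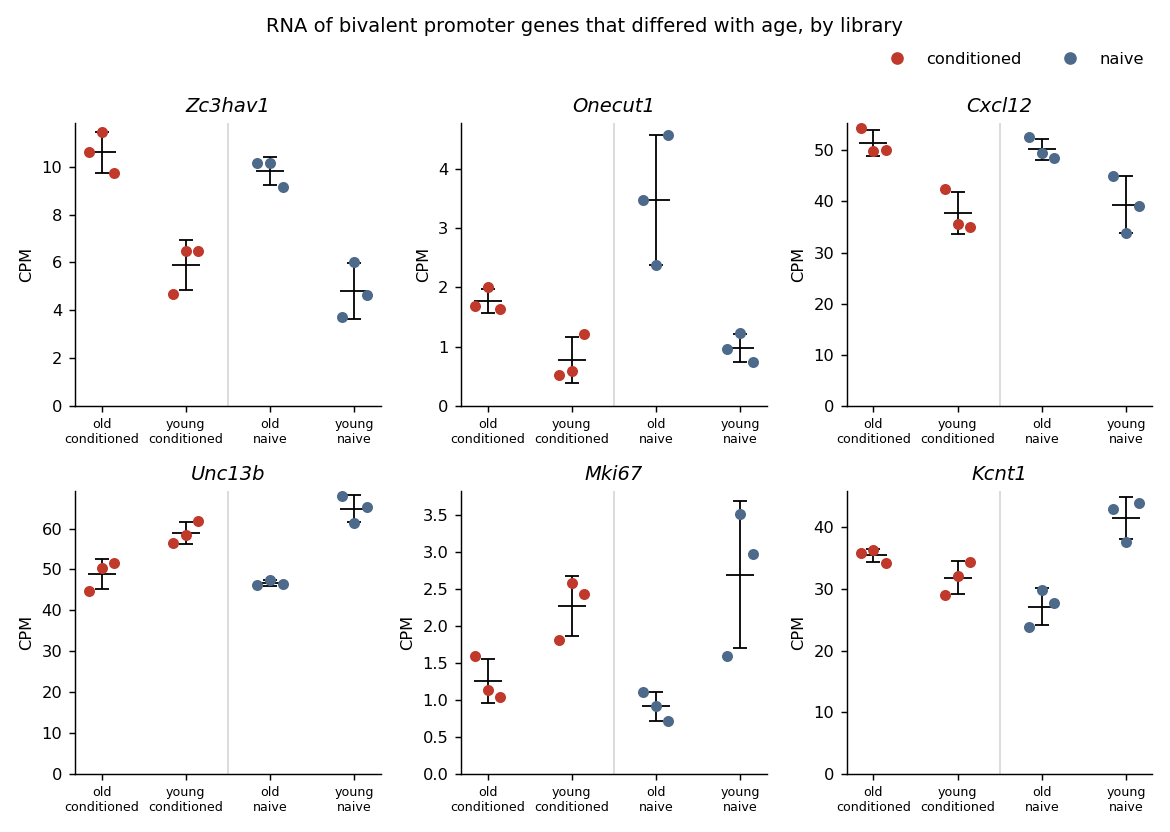
CPM of 6 bivalent promoter genes called with age in each of the 12 RNA libraries (points), with the mean and SD of the 3 libraries of a group (bars). Old libraries stand left of young ones within each condition. Zc3hav1 lies between 9.15 and 11.4 CPM in old and between 3.71 and 6.5 CPM in young libraries, and Kcnt1 differs with age in naive mice (23.8 to 29.8 against 37.6 to 44 CPM).

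The age counts moved with single libraries too. Averaged over conditions, 83 member genes, 39 higher and 44 lower, passed without young naive library 81. Only 2 passed without old conditioned 61 or 63 or young naive 83, 3 without old naive 67 or young conditioned 75 or 77, and 7 without old naive 69. In naive mice 4 passed without young naive 81, and 0 or 1 without old conditioned 61, 63 or 65, old naive 67, 69 or 71, young conditioned 75, or young naive 79 or 83. In conditioned mice 1 passed without young naive 79 or 81. With the choroid score as a covariate the count over both conditions was 66, with 17 higher and 49 lower, and it held 10 of the 11 genes, Rasgrf1 reaching an adjusted p of 0.0509 by edgeR.

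H2A.Z at members was not called different with age. In naive mice 0 members passed the authors' FDR of 0.05 (background 0), the median log2 fold was 0.48 against 0.33 for all consensus peaks, and 776 members (20%) were higher and 0 lower with an unadjusted p under 0.05, in the authors' deposited table. Of all consensus peaks 2390 were higher and 52 lower at that threshold (12.1%), and of active promoters 18.6% passed it. The authors' age folds differ from the differences of their levels by a constant, -0.33 in naive and -0.12 in conditioned mice, so the levels alone would give larger age differences. Among the members of smallest p were Larp1 (1.45), an RNA-binding protein gene of translation control, Sbk1 (1.44), Cebpb (1.36) and Habp4 (1.27), with an FDR of 0.209 to 0.224 in the authors' deposited table. In conditioned mice 0 passed (background 0), the median was 0.07 against 0.09, and 10 members (0.258%) had an unadjusted p under 0.05, all higher, against 0.554% of all consensus peaks, in the authors' deposited table. The members of smallest p there were Sprn (4.78), Tmem63c (4.44), Sphkap (3.96), Gm5087 (3.10) and Fah (2.04) in the authors' deposited table, whose young conditioned group is the one that enters the young training fold as well. Age and training folds share groups in this way throughout, so their values stand side by side as descriptions.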

How the data were processed

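RNA counts per gene symbol, whole numbers without normalization, were deposited by the authors for 12 libraries (9410843 to 13350561 counts each). Per the submitters' processing notes, reads were handled with TopHat, Bowtie2 2.2.1, HTSeq 0.6.1p2, FastQC, cutadapt and Trim Galore 0.4, and MACS2 2.0.10, edgeR 3.8.6, DiffBind 1.12.2 and R 3.1.0 are also named, beside builds mm10 and mm9. No role, annotation or strandedness is given in the sources used here, so reads of overlapping genes cannot be told apart. The authors deposited 1 table of H2A.Z consensus peaks on mm10 with log2 folds and log2 mean levels per group, p-values and FDR, the number of libraries with a called peak and positions of mark regions. The group letter T was taken to mean conditioned, since N and the ages match other labels, and the sign of folds was set to old minus young and conditioned minus naive.

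RNA was tested with edgeR 4.0.16 in R 4.3.3 (TMM, filterByExpr, 1 quasi-likelihood fit of 4 groups, Benjamini-Hochberg adjustment over all 14405 tested genes), and checked on simulated data. Standard errors come from the F statistic. CPM use TMM-scaled library sizes. DESeq2 1.42.0, upper-quartile factors, other filters, 2-group fits, a choroid plexus score, single libraries left out, other FDR limits and stricter membership were tried. Python 3.11.15 with pandas 2.3.3, numpy 2.4.6 and matplotlib 3.10.9 was used. The 12 input libraries were not analysed here.

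Genes were named by this rule: up to 10 called genes a direction per RNA comparison, topped up to 10 by smallest p among genes with a mean log2 CPM of at least 1; the 5 highest and 5 lowest called H2A.Z folds per comparison, or the 5 of smallest p; the 5 highest and 5 lowest young naive levels; the 10 highest CPM; up to 4 genes a list by RNA p; early activity genes; and Ezh2, Suz12, Eed, H2afz and H2afv. The printed promoters of Fos, Egr4 and Cyr61, the choice of Pla2g4e and Sprn among the deepest falls, genes named for wide H3K27me3 regions, at the distance limit or as the called H2A.Z peaks of a list, and single other peaks of named genes were picked with their values already known. Members and lists were chosen with earlier results of these data known. Some genes that the rule names are not reported here.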

Additional observations from a re-analysis of the deposited data

How the results depend on the processing

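No paired analysis was possible because the groups compared share no replicate number. Counts of called member genes moved as follows. With DESeq2, training gave 6 genes in old mice, 3 in young mice and 9 over both ages, age gave 40 in conditioned mice, 11 in naive mice and 75 over both conditions, and the interaction gave 1. Without the low-count filter training gave 6 in old mice, 4 in young mice and 11 over both ages, and age gave 2 in conditioned mice, 10 in naive mice and 53 over both conditions. With the choroid score, training in young mice gave 3 and age gave 7 in conditioned mice, 8 in naive mice and 66 over both conditions. Training over both ages gave 4 with that score, 3 higher and 1 lower, of which 3 were among the 5 of the main fit. Fits of 2 groups gave 5 for training in old and 0 in young mice, and 1 for age in conditioned and 0 in naive mice. Upper-quartile factors gave 0 for training in young mice, and a start site within 500 bp gave 0 there and 3 over both ages. With 1 library left out the counts ran from 0 to 5 (training, old), 0 to 9 (young), 3 to 17 (both), 0 to 1 (age, conditioned), 0 to 4 (naive), 2 to 83 (both) and 0 to 0 (interaction). The cause of each shift was not tested. For H2A.Z in old mice, 120 members passed an FDR of 0.01, 1111 passed 0.10, and 202 of 1490 passed with both marks inside or included. In young mice these were 129, 512 and 135. Stricter limits and fewer peaks lower such counts by construction. No RNA change of a called gene changed sign. The median H2A.Z fold of members depends on the reference. Set against all consensus peaks, it was lower in old mice (-0.98 against -0.93) and not lower in young mice (-0.53 against -0.57). The 472 member genes under the count filter could not be tested, and arms of 3 libraries limit each comparison.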
